A study of Bos taurus with 6 samples.

Results

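The genes described here are 10 genes of Wnt signalling in bovine articular chondrocytes, of 9169 genes that could be named on the array: NDP, WLS, LRP4, FRZB, DKK3, CCN5, CTNNB1, AXIN2, TCF7 and TCF7L2. They were chosen by gene symbol, and the list was drawn up with the difference between TGF-β and untreated cultures of these arrays known. That difference is therefore given for them as a description, and a call on it is no evidence that Wnt genes are a special group. The 10 genes have 12 probe sets among the 24016 tested, with 2 each for TCF7 and DKK3 and 1 for each of the others. The LRP4 probe set has its name only from the study's own list of changed genes, where WLS stands under its older name GPR177, and NDP is on that list as well.

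Cartilage cells of 3 cows were taken from metacarpal-phalangeal joints obtained from an abattoir and plated at high density as micromass cultures, in which chondrocytes go on making matrix. TGF-β1 was added to 3 cultures at 5 ng/ml, with RNA taken after 8 hours, and 3 untreated cultures received vehicle. Each culture was hybridised to 1 Affymetrix Bovine Genome array and numbered 1 to 3 within its group. The labels do not give the age of the animals, and all cultures were kept in low serum with ascorbate. Values are log2 signals that the authors centred on each probe set's median over the 6 arrays, so that a value of 1 is a doubling over that median, differences between arrays are kept, and the level of a gene is lost.

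Wnt proteins are secreted lipid-modified ligands that bind Frizzled receptors and LRP co-receptors. In the canonical branch this stops a destruction complex of Axin, APC and kinases from degrading β-catenin, which then enters the nucleus and joins transcription factors of the TCF/LEF family. Articular cartilage secretes several inhibitors of the pathway, and excess as well as deficient β-catenin signalling damages joint cartilage in mice.

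Arrays with the same number deviated together from their group means (r = 0.69 to 0.85 across probe sets, against -0.68 to 0.18 between other numbers). Deviations sum to 0 within each group, so positive correlations between same numbers draw those between other numbers down. The difference between TGF-β and untreated arrays was fitted with limma with the replicate number as a term, called the paired fit below. A gene is said to have risen or fallen where its adjusted p over all 24016 probe sets was under 0.05 in that fit, which was the case for 5.90% of them (2.44% higher and 3.46% lower). Without pairing, 0 probe sets of the array had an adjusted p under 0.05 in limma and 0 in the unequal-variance comparison that the methods name. The study's own list was drawn with a P-value under 0.05 and a minimum fold change, and no adjustment is stated for it. At an unadjusted p under 0.05 the paired fit gave 8 of the 12 Wnt probe sets (19.7% of all), which are the 8 with a call. At the same p limma without pairing gave 6 of the 12 Wnt probe sets (5.73% of all), and the unequal-variance comparison gave 3 (4.30% of all). The replicates differed in more than treatment. The median of 34 cell cycle probe sets was 2.16 on the TGF-β array and 2.33 on the untreated array of replicate 3, against -0.28 to -0.05 on the other 4 arrays. Spike-in controls were bright on 1 array, TGF-β replicate 2, where their median was 1.53, against -0.17 to 0.06 on the other arrays. The part of either difference in the results was not tested. The centring does not allow a check that chondrocyte genes are present, and of 13 probe sets of chondrocyte markers 2 rose, both of COMP, and 0 fell. The median log2 fold change of the 13 was -0.096. At an unadjusted p under 0.05 limma's paired fit gave 4 of the 13 (19.7% of all). These were the 2 of COMP, with log2 fold changes of 1.05 and 0.79, and 2 lower in every replicate, 1 of ACAN (-0.40) and COL11A2 (-0.39). Of 12 fibroblast marker probe sets 3 fell (2 of COL1A2 and 1 of S100A4), of 6 osteoblast ones 1 fell (IBSP), and 0 of 8 macrophage and 0 of 11 endothelial ones passed in limma's paired fit (1 and 0 at an unadjusted p under 0.05, and 0 and 0 without pairing). The levels of these markers are unknown, and their part in the changes below was not tested. List medians by array ran from -0.20 to 0.45 with TGF-β and from -0.20 to 0.17 without for the chondrocyte markers, and from -0.20 to 0.15 and from -0.04 to 0.32 for the fibroblast markers.

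Of the 10 Wnt genes, 2 rose (TCF7 and LRP4), 5 fell (NDP, WLS, FRZB, CCN5 and TCF7L2) and 3 did not pass the test (DKK3, CTNNB1 and AXIN2). By probe set these were 3 higher, 5 lower and 4 not past the threshold of 12, and nothing is read from these shares, because the list was drawn up on this contrast. In whole cultures fewer cells that express a gene and less of its RNA per cell cannot be told apart. The median log2 fold change of the 12 was -0.15, against 0.01 over all probe sets. The sign was the same in all 3 replicates in 11 of the 12, the exception being AXIN2, and in 40.7% of all probe sets. The TGF-β and untreated arrays did not overlap in 5 of the 12, against 11.0% of all probe sets. TGF-β lay wholly above in 2 (6.11% of all) and wholly below in 3 (4.91% of all).

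**Figure D1:**
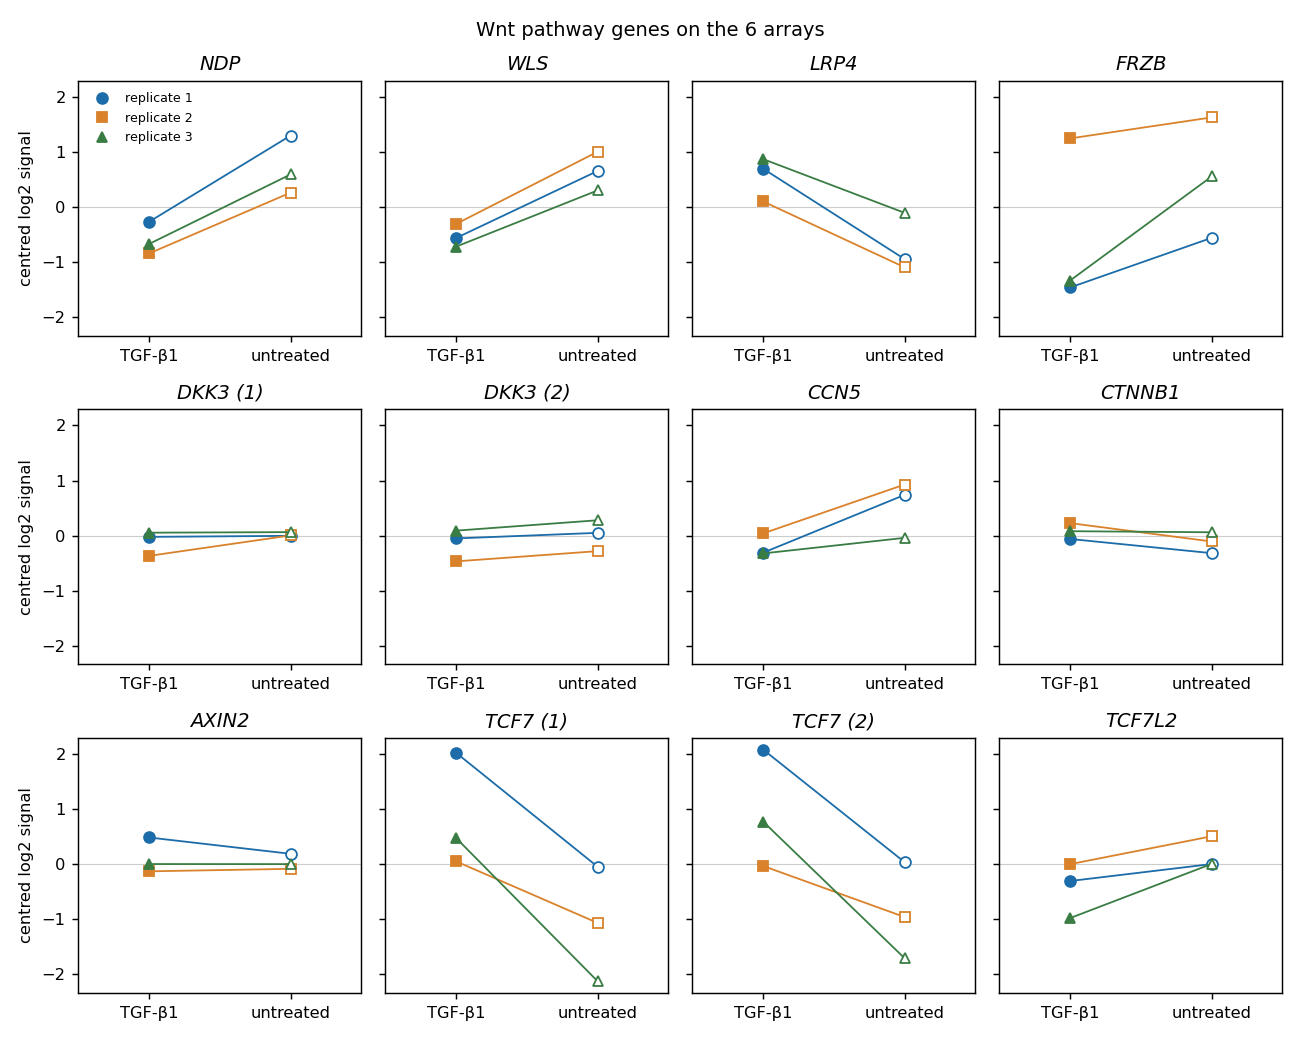
Centred log2 signal (vertical axis) of the 12 probe sets of the Wnt genes on the TGF-β1 arrays (filled, left) and the untreated arrays (open, right), with lines joining arrays of the same replicate number; (1) and (2) number the probe sets of a gene. Every line of NDP and WLS runs lower on the TGF-β1 side, every line of LRP4 and TCF7 runs higher there, and the lines of DKK3, CTNNB1 and AXIN2 are nearly flat.

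NDP and WLS belong to the sending side of the pathway. NDP encodes norrin, a secreted protein unrelated to Wnts in sequence that binds the receptor Frizzled-4 together with LRP5 or LRP6. NDP had -0.26, -0.84 and -0.67 on the TGF-β arrays of replicates 1, 2 and 3, against 1.30, 0.26 and 0.60 on the untreated arrays. All TGF-β arrays lay below all untreated arrays, with a gap of 0.53 between the groups. NDP fell by 1.31 log2 units (SE 0.122, n = 3 pairs), or 2.48-fold, and the replicate differences lay between -1.57 and -1.10. WLS encodes Wntless, the membrane protein that carries newly made Wnt ligands to the cell surface. WLS had -0.56, -0.30 and -0.72 on the TGF-β arrays of replicates 1, 2 and 3, against 0.66, 1.01 and 0.30 on the untreated arrays. The groups were again apart, here by 0.61, the widest gap among the 12 probe sets. WLS fell by 1.18 log2 units (SE 0.111, n = 3 pairs), or 2.27-fold, with replicate differences of -1.22, -1.31 and -1.02 whose SD was 0.148.

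LRP4 was the only receptor gene among the 10, and it rose. Its product is a membrane protein of the LDL receptor family that binds the Wnt inhibitors sclerostin and DKK1, and at the neuromuscular junction it is the receptor of agrin. LRP4 had 0.70, 0.10 and 0.87 on the TGF-β arrays of replicates 1, 2 and 3, against -0.94, -1.09 and -0.10 on the untreated arrays. The lowest TGF-β array, that of replicate 2, lay 0.21 above the highest untreated array, that of replicate 3. The log2 fold change was 1.27 (SE 0.140, n = 3 pairs), a 2.41-fold rise, with replicate differences of 1.64, 1.20 and 0.98. NDP, WLS, LRP4 and both probe sets of TCF7 kept their calls when any 1 replicate was left out and with a variance prior robust to outliers. They also kept them after quantile normalization, which acted on the centred values and gave every array the same spread (array SD 0.23 to 0.47 before it).

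Of the genes from families of secreted inhibitors, FRZB fell and DKK3 did not pass the test. FRZB encodes a secreted Frizzled-related protein, also called sFRP3, that binds Wnt ligands outside the cell and was first purified from bovine cartilage. FRZB had -1.46, 1.25 and -1.33 on the TGF-β arrays of replicates 1, 2 and 3, against -0.56, 1.63 and 0.56 on the untreated arrays. Both arrays of replicate 2 were far above all others, so the groups overlapped, and TGF-β was lower within each replicate. FRZB fell by 1.06 log2 units (SE 0.236, n = 3 pairs), or 2.08-fold, with replicate differences of -0.90, -0.38 and -1.89. The difference came to -0.64 without replicate 3, and the call was lost with the robust prior, after quantile normalization and on gene means (adjusted p = 0.0697, 0.0587 and 0.0566 in limma). FRZB has only 1 probe set, so on gene means its values were unchanged, and only the variance prior and the number of features differed.

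DKK3 encodes a divergent member of the Dickkopf family, of which DKK1 inhibits Wnt signalling through LRP co-receptors. The first of its 2 probe sets had -0.02, -0.37 and 0.05 on the TGF-β arrays of replicates 1, 2 and 3, against 0.00, 0.00 and 0.06 on the untreated arrays. The second had -0.05, -0.47 and 0.09 on the TGF-β arrays, against 0.05, -0.28 and 0.28 on the untreated arrays. Every replicate was slightly lower with TGF-β on both, and the groups overlapped. The log2 fold changes were -0.13 and -0.16, with 95% intervals from -0.40 to 0.14 and from -0.40 to 0.08. A fall of the signal by 1 log2 unit like that of FRZB lay outside both intervals. Signal over background is unknown after the centring, so the intervals hold for the signal and cannot exclude such a fall of the gene's RNA. The change of the first probe set was -0.01 without replicate 2, and that of the second was -0.09 after quantile normalization.

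CCN5, also called WISP2 for its induction by Wnt1 in mouse mammary cells, encodes a small matricellular protein that lacks the cysteine knot domain found at the end of other CCN proteins. CCN5 had -0.31, 0.04 and -0.32 on the TGF-β arrays of replicates 1, 2 and 3, against 0.74, 0.93 and -0.04 on the untreated arrays. The untreated array of replicate 3 lay among the TGF-β arrays, and the groups overlapped. CCN5 fell by 0.74 log2 units (SE 0.152, n = 3 pairs), or 1.67-fold, with replicate differences of -1.05, -0.89 and -0.28. In limma it did not pass without replicate 1 or 2 (adjusted p = 0.118 and 0.168) or after quantile normalization (0.0673).

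CTNNB1 and AXIN2 did not pass the threshold. CTNNB1 encodes β-catenin, which is controlled mainly through protein stability, and AXIN2 encodes a scaffold of the destruction complex that is itself a widely used target gene of β-catenin. CTNNB1 had -0.06, 0.23 and 0.08 on the TGF-β arrays of replicates 1, 2 and 3, against -0.32, -0.11 and 0.06 on the untreated arrays. AXIN2 had 0.48, -0.13 and 0.00 on the TGF-β arrays, against 0.19, -0.09 and 0.00 on the untreated arrays. Both genes overlapped between the groups, and the AXIN2 array with the highest value in each group was that of replicate 1. The log2 fold changes were 0.20 for CTNNB1 (95% interval -0.05 to 0.46) and 0.08 for AXIN2 (-0.18 to 0.35), and that of AXIN2 was -0.02 without replicate 1. A rise of the AXIN2 signal by more than 1.27-fold or a fall below 0.884 of the untreated signal lay outside its interval. As for DKK3, this holds for the signal, since its level over background is unknown.

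The TCF genes moved in opposite directions. TCF7, which encodes TCF1, is best known from T cell development, and its product binds β-catenin and DNA, while short forms without the β-catenin binding region act as repressors. The first TCF7 probe set had 2.02, 0.05 and 0.47 on the TGF-β arrays of replicates 1, 2 and 3, against -0.05, -1.07 and -2.13 on the untreated arrays. The second had 2.08, -0.03 and 0.77 on the TGF-β arrays, against 0.03, -0.96 and -1.71 on the untreated arrays. The probe sets differed by at most 0.42 on any array and ordered the arrays alike at both ends, with TGF-β replicate 1 highest and untreated replicate 3 lowest. The groups were 0.099 apart on the first, while on the second the TGF-β array of replicate 2 lay below the untreated array of replicate 1. TCF7 rose by log2 fold changes of 1.93 (SE 0.232, n = 3 pairs) and 1.82 (SE 0.245, n = 3 pairs), which are 3.81-fold and 3.53-fold and the largest among the 12 probe sets. The replicate differences on the first were 2.07, 1.12 and 2.60, and on the second 2.05, 0.93 and 2.48, with the smallest in replicate 2 on both. With the replicate as a random term neither probe set passed (adjusted p = 0.0750 and 0.0810 in limma).

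TCF7L2, which encodes TCF4, the partner of β-catenin in intestinal epithelium, had -0.31, 0.00 and -0.98 on the TGF-β arrays of replicates 1, 2 and 3, against 0.00, 0.50 and 0.00 on the untreated arrays. The groups did not overlap, but the TGF-β array of replicate 2 was only 0.0025 below the nearest untreated array. TCF7L2 fell by 0.60 log2 units (SE 0.141, n = 3 pairs), or 1.51-fold, close to the threshold (adjusted p = 0.0436 in limma's paired fit). It was -0.41 without replicate 3 and -0.65 without replicate 2, and passed in neither case (adjusted p = 0.161 and 0.151 in limma). Which splice forms of either gene the probe sets detect was not examined, since no sequences were given. The values speak for transcripts that the probe sets detect.

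**Figure D2:**
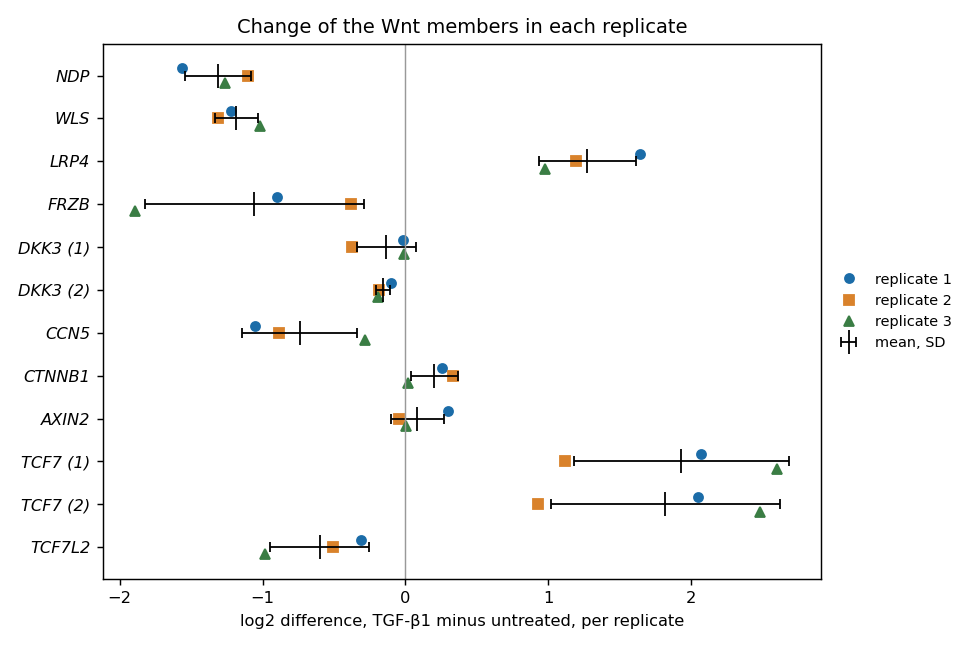
Log2 difference, TGF-β1 minus untreated (horizontal axis), of each Wnt probe set in replicates 1 to 3 (coloured points), with the mean (upright line) and SD (bar) of the 3 differences. The points of TCF7 lie between 0.93 and 2.60 and those of LRP4 between 0.98 and 1.64, those of NDP and WLS lie between -1.57 and -1.02, and those of DKK3, CTNNB1 and AXIN2 lie between -0.37 and 0.33.

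The spread between replicates is a contrast that the choice of genes did not use, although it is tested against the same residual spread. By the moderated F test over replicate numbers in the paired fit, 8 of the 12 probe sets differed between replicates at an adjusted p under 0.05, against 27.5% of all probe sets. The median range over the 3 replicate means was 0.70 log2 units for the 12, against 0.32 for all. This is not particular to the 12. Wnt target genes described below had 8 of 13 and 0.78, fibroblast markers 7 of 12 and 0.65, and chondrocyte markers 7 of 13 and 0.69. The larger lists that hold these were lower, with 41 of 101 and 0.38 for the other pathway and CCN genes, and 20 of 50 and 0.34 for all cell type markers. In 6 of the 12 (FRZB, TCF7L2, CTNNB1, AXIN2 and both of DKK3) the range over the replicate means was larger than the change with TGF-β. Such a range is always above 0 where the means differ, and the share over all probe sets was not computed, so nothing is read from this count.

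FRZB differed most, with means over both arrays of -1.01, 1.44 and -0.39 in replicates 1, 2 and 3 (adjusted p = 0.00094, limma's F test). Of the 13 chondrocyte marker probe sets 7 also differed between replicates. Among them, picked after their values were seen, 1 of 2 for the collagen gene COL9A1 had 1.58 on the TGF-β array and 3.06 on the untreated array of replicate 2, and COL11A2 had 1.21 and 1.29 there. The part of this in the FRZB value was not tested. TCF7 stood high in replicate 1, with means of 0.99, -0.51 and -0.83 on the first probe set (adjusted p = 0.0035, limma's F test) and 1.06, -0.50 and -0.47 on the second. LRP4 was highest in replicate 3 (0.38) and lowest in replicate 2 (-0.49), and NDP was highest in replicate 1 (0.52) and lowest in replicate 2 (-0.29). The replicate with the highest mean was thus 2 for FRZB, 3 for LRP4 and 1 for NDP and both TCF7 probe sets. Without replicate 2, 3 of the 12 probe sets differed between the remaining numbers, and without replicate 3, 4 did.

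**Figure D3:**
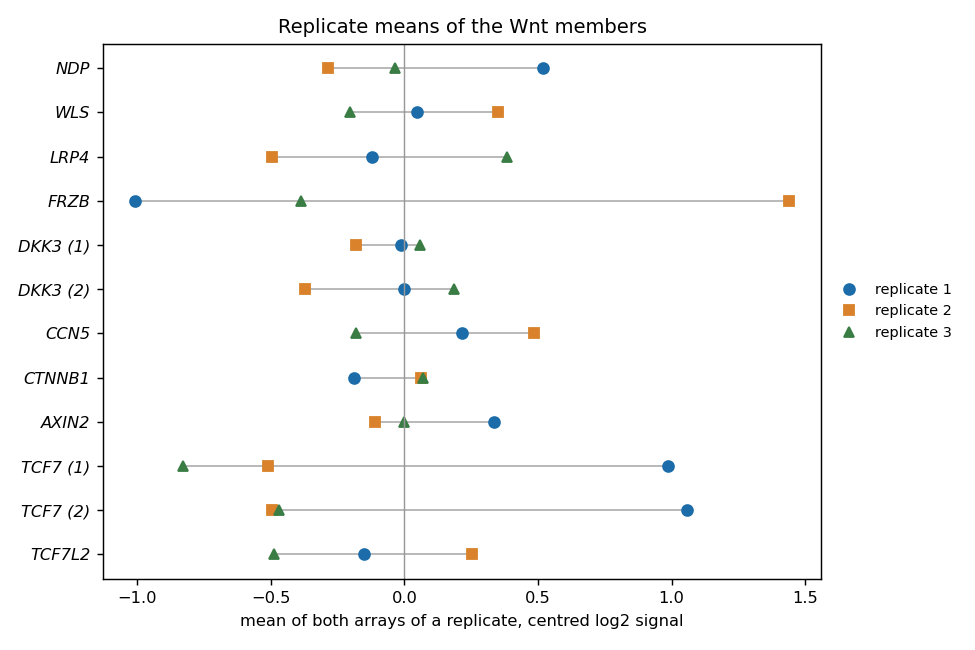
Mean centred log2 signal over the TGF-β1 and untreated arrays of each replicate number (horizontal axis) for the 12 Wnt probe sets, with a grey line over their range. FRZB spans 2.45 log2 units with replicate 2 highest, the TCF7 probe sets span 1.81 and 1.55 with replicate 1 highest, and CTNNB1 spans 0.26.

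Other genes of the pathway were taken from lists by role, together with the remaining CCN genes. Of 133 such genes, 63 could be matched by symbol, with 101 probe sets, and the other 70 were not analysed here. Among the 101 probe sets, 3 rose, 11 fell and 87 did not pass, and the median log2 fold change was 0.01, as over all probe sets. These belong to 2 genes that rose (TSPAN12 and APC) and 5 that fell (LGR4, CTNNBIP1, PRICKLE1, CCND1 and CCN3). The share called in either direction among all probe sets was 5.90%. No set test was made, and TSPAN12 and CCN3 stand on the study's list of changed genes, which was chosen on these arrays.

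Among 11 receptor and co-receptor genes, TSPAN12 rose and LGR4 fell. TSPAN12 encodes a tetraspanin that joins Frizzled-4 and LRP5 in the norrin receptor. Its second probe set had 1.28, 0.56 and 0.16 on the TGF-β arrays of replicates 1, 2 and 3, against -0.16, -0.47 and -1.12 on the untreated arrays. The groups were 0.32 apart, and the log2 fold changes of its probe sets were 1.25 (SE 0.118, adjusted p = 0.00085 in limma's paired fit) and 1.02 (SE 0.177, adjusted p = 0.0126), opposite in sign to that of the ligand gene NDP. The other parts of that receptor, FZD4 and LRP5, did not pass, and their probe sets differed in sign within each gene. The FZD4 probe sets had -0.22 and 0.12 and the LRP5 probe sets -0.40 (adjusted p = 0.0626 in limma's paired fit) and 0.14. LGR4 encodes a receptor of R-spondins, secreted proteins that raise the response to Wnts. Its 2 probe sets fell by 0.51 and 1.07 log2 units (adjusted p = 0.0277 and 0.0496 in limma's paired fit), with no overlap between the groups. Neither passed without replicate 1 (adjusted p = 0.145 and 0.0678 in limma) or without replicate 2 (0.118 and 0.161), and the second had -0.60 without replicate 2. Both also missed it with the replicate as a random term (0.0515 and 0.147) and after quantile normalization (0.0506 and 0.0851), and the second with the robust prior (0.0914) and after median centring (0.0564).

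Among 5 ligand genes, with 8 probe sets, 0 rose and 0 fell in limma's paired fit, with 2 of the 8 at an unadjusted p under 0.05 there (19.7% of all probe sets) and 0 in the unequal-variance comparison (4.30%). The R-spondin gene RSPO3 came nearest, with 0.64, -0.07 and 0.50 on the TGF-β arrays of replicates 1, 2 and 3 and -0.08, -0.35 and 0.07 on the untreated arrays (log2 fold change 0.48, adjusted p = 0.0543 in limma's paired fit). Among 9 genes of secreted inhibitors, with 12 probe sets, 0 passed in limma, with 1 of the 12 at an unadjusted p under 0.05 and 0 in the unequal-variance comparison, against the same shares of all. SFRP5, a relative of FRZB, had -0.34, 0.97 and -0.49 on the TGF-β arrays of replicates 1, 2 and 3, against 0.16, 1.37 and -0.16 on the untreated arrays. As for FRZB, both arrays of replicate 2 were the highest. The log2 fold change of SFRP5 was -0.41 (SE 0.106, adjusted p = 0.0607 in limma's paired fit). In the fit on gene means, adjusted over genes, RSPO3 and SFRP5 came within the threshold (adjusted p = 0.0497 and 0.0429 in limma). Each has only 1 probe set, so their values were unchanged there, and only the variance prior and the number of features differed.

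Among 13 genes of the cytoplasm, APC rose and CTNNBIP1 fell. CTNNBIP1 encodes ICAT, a small protein that keeps β-catenin from binding TCF factors. It had -0.43, -0.03 and -0.75 on the TGF-β arrays of replicates 1, 2 and 3, against 0.26, 0.74 and 0.03 on the untreated arrays, on the first of its 2 probe sets. The groups did not overlap there, and the replicate differences of -0.69, -0.77 and -0.78 were nearly equal. The probe sets fell by 0.75 (SE 0.104, adjusted p = 0.0052 in limma's paired fit) and 0.54 log2 units (SE 0.105, adjusted p = 0.0214), and the second did not pass without replicate 1 or 2 (0.121 and 0.0777). APC encodes the tumour suppressor that holds the destruction complex together. One of its 3 probe sets rose by 1.19 log2 units (SE 0.247, adjusted p = 0.0263 in limma's paired fit), with replicate differences of 1.08, 0.44 and 2.05, and with 0.76 without replicate 3. The others had 0.19 and 0.69 and did not pass (adjusted p = 0.584 and 0.152), and the one with 0.69 had 1.15 without replicate 2 (adjusted p = 0.0130 in limma). On gene means APC had 0.69 (adjusted p = 0.111). A further probe set, which the study's list names APC and the array annotation WARS1, a tRNA synthetase gene, rose 2.66-fold and was not counted as APC.

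Among 10 nuclear genes, with 14 probe sets, 0 rose and 0 fell in limma's paired fit, with 2 of the 14 at an unadjusted p under 0.05 there (19.7% of all probe sets) and 2 in the unequal-variance comparison (4.30%). PYGO2, whose product is a coactivator in the β-catenin complex, came nearest, at -0.42 log2 units (SE 0.125) and an adjusted p of 0.0994 in limma's paired fit. TCF7 and TCF7L2 were thus the nuclear genes of the pathway with a call, and as members of the list chosen on this contrast they cannot be set against the other 10. Among 8 target genes, with 13 probe sets, CCND1, which encodes cyclin D1, had -0.31, -0.73 and 0.46 on the TGF-β arrays of replicates 1, 2 and 3, against 0.31, -0.40 and 1.05 on the untreated arrays. It fell by 0.51 log2 units (SE 0.113, adjusted p = 0.0336 in limma's paired fit), in each replicate and with overlap between the groups. Leaving out replicate 1, 2 or 3 ended that call (adjusted p = 0.170, 0.0598 and 0.103 in limma). Of the 34 cell cycle probe sets, 3 (MCM4, TYMS and CENPF) fell and 0 rose, and their part in the CCND1 value was not tested.

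In the branch of planar cell polarity, which orients cells without β-catenin, 4 genes were measured and PRICKLE1 fell on all 4 of its probe sets. PRICKLE1 encodes a cytoplasmic protein of that branch. One probe set had -0.17, 0.17 and -1.33 on the TGF-β arrays of replicates 1, 2 and 3, against 0.81, 2.03 and -0.49 on the untreated arrays. Replicate 2 was highest and replicate 3 lowest in both groups, which overlapped. Its log2 fold change was -1.23 (SE 0.184, adjusted p = 0.0070 in limma's paired fit), and those of the other probe sets were -1.11, -1.08 and -0.94. Without replicate 2, the change of this probe set was -0.91 (adjusted p = 0.0217 in limma), and the other 3 had -0.96, -0.66 and -0.54 and did not pass (adjusted p = 0.0531, 0.0508 and 0.0864).

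Of the CCN genes related to CCN5, CCN3 fell and CCN1 and CCN2 did not pass. CCN3, also called NOV, encodes a matricellular protein made by chondrocytes, and its 2 probe sets have their name only from the study's list. The first had -1.04, -0.91 and -0.24 on the TGF-β arrays of replicates 1, 2 and 3, against 0.61, 0.24 and 1.18 on the untreated arrays. The groups were 0.47 apart on the first and 0.52 on the second. CCN3 fell by 1.40 (SE 0.125) and 1.29 log2 units (SE 0.111), with adjusted p = 0.00077 and 0.00069 in limma's paired fit. CCN1 and CCN2 had log2 fold changes of 0.16 and 0.20, with all TGF-β arrays above all untreated arrays by 0.022 and 0.076.

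**Figure D4:**
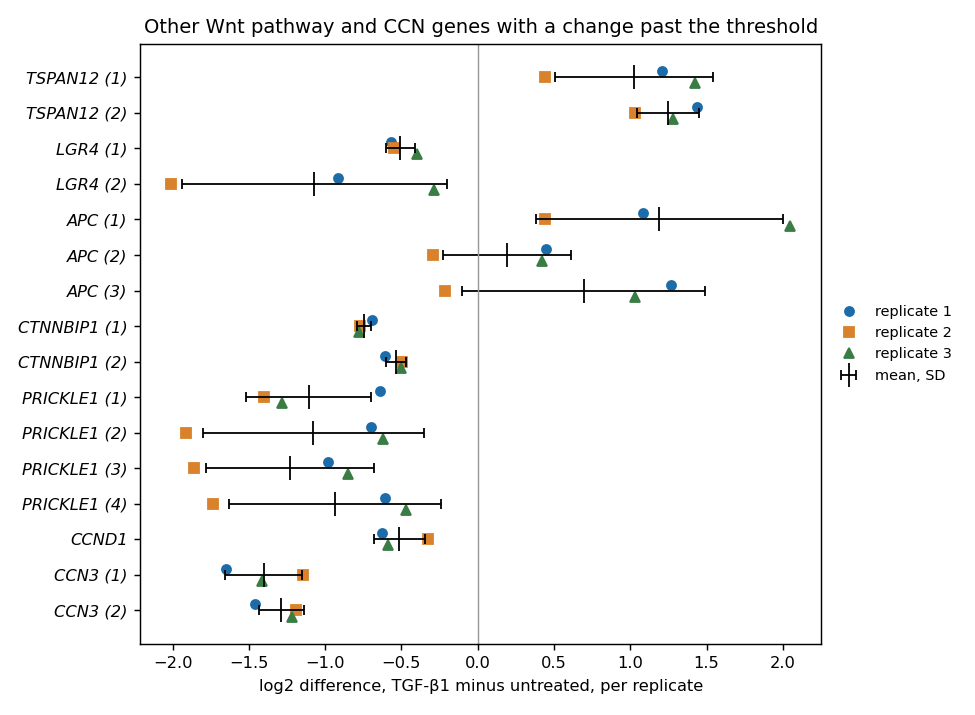
Log2 difference, TGF-β1 minus untreated (horizontal axis), in replicates 1 to 3 (coloured points) for every probe set of the 7 other Wnt pathway and CCN genes with a call, with the mean (upright line) and SD (bar) of the 3 differences. Points of TSPAN12 lie between 0.44 and 1.44, those of CTNNBIP1, PRICKLE1, CCND1, LGR4 and CCN3 all lie below 0, and 2 of the APC probe sets have a point below 0 in replicate 2.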

How the data were processed

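The deposited values are log2 signals. The authors made them by Robust Multichip Average, run in GeneSpring, a method that corrects background, brings the arrays to a common distribution and combines the probes of each probe set. RNA was amplified in 2 cycles before labelling. Every probe set has a median of 0 across the 6 arrays (to within 5e-07), so levels are lost and dim probe sets could not be filtered. Scanner files were not used here, and the number of arrays limits the precision. Of 24128 probe sets, 112 controls were left out and 24016 tested. The array annotation gave 1 symbol to 13292, several to 86 and none to 10638, of which 22 were named by the study's list. Symbols were updated through 13263 Entrez matches to the ARS-UCD2.0 gene table, and no sequences were given with it. No pair of arrays shared more than 56 identical values.

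Differences are TGF-β minus untreated, fitted with limma 3.58.1 in R 4.3.3 (lmFit, eBayes, two-sided, Benjamini-Hochberg over all probe sets at 0.05) with replicate number in the model. The numbers were taken to pair the arrays because every same-numbered pair had a correlation of deviations above 0.1 and the study grew cultures of each of 3 cows with and without TGF-β; the labels do not name the cow. SE is that of the fit, with variances drawn toward those of all probe sets, and 95% intervals use its 8.72 degrees of freedom. The fit was also run on simulated data with known changes, whose spread was drawn from the variance prior of the fit to these arrays. It recovered 12.2% of changes of 0.5 log2 units and 94.8% of changes of 1 log2 unit. A change near 0.5 log2 units would thus often not pass. The members and lists were chosen with earlier results of these data known. Named genes are every member, every listed gene with a call, and in a role without a call the gene with the smallest p; DKK1, VCAN, FZD4, LRP5, CCN1 and CCN2 were added after their values were seen, with the same alternatives. Alternatives were no replicate term, a random replicate term (statmod 1.5.0), the methods' unequal-variance test, a robust prior, quantile and median scaling, gene means, only named probe sets, and leaving out each replicate. Quantile and median scaling were applied to the centred values, so quantile scaling made the distribution of deviations equal across arrays and is not a normalization of signals. Figures were drawn with matplotlib 3.10.9.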

Additional observations from a re-analysis of the deposited data

How the results depend on the processing

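With 3 pairs of arrays the precision is limited, and after the centring only differences between arrays can be read, so signal over background is unknown. Without the replicate block, limma on the groups alone and the methods' unequal-variance test were held to an adjusted p under 0.05. They called 0 probe sets higher and 0 lower among the Wnt genes, the wider lists and the marker lists. With the replicate as a random term, 1 higher (LRP4) and 2 lower (NDP and WLS) of the Wnt probe sets were called, 1 and 2 of the wider lists, and 0 and 1 of the marker lists. After quantile normalization the calls were 3 lower for the Wnt genes, 6 lower for the wider lists and 0 higher and 1 lower for the markers, and 5 Wnt probe sets differed between replicates. Gene means gave 6 lower genes in the wider lists and 1 higher marker gene, counted over fewer features, and the robust prior left 1 higher marker probe set. Leaving out each replicate gave 3 higher and 3 to 4 lower calls of 3 and 5 among the Wnt probe sets, 3 to 5 higher and 4 to 12 lower of 3 and 11 in the wider lists, 0 to 2 higher and 2 to 5 lower of 2 and 7 among the markers, and 3 to 6 of 8 for differences between replicates. AXIN2 changed sign without replicate 1, with a range of -0.022 to 0.149 over the replicates left out, and no other probe set of the 10 Wnt genes, the called genes, RSPO3, SFRP5 or PYGO2 changed sign. Of the genes added after their values were seen, DKK1 ranged from -1.32 to 0.30 and from -1.20 to 0.46 on its 2 probe sets over the replicates left out, changing sign without replicate 1. Gene means gave -0.048 for FZD4 and -0.13 for LRP5, since their probe sets differ in sign. Centring the arrays on their medians and adjusting over named probe sets alone changed no call of the 12, and median centring ended 1 call in the wider lists (LGR4, adjusted p = 0.0564 in limma). The cause of these shifts was not tested.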

Other observations

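DKK1, which encodes a secreted Wnt inhibitor that blocks LRP5 and LRP6, went in different directions in the replicates. Its first probe set had -1.40, -1.24 and 2.68 on the TGF-β arrays of replicates 1, 2 and 3, against 0.67, -0.67 and 1.52 on the untreated arrays, and the second had -1.34, -1.06 and 2.83 against 0.69, -0.69 and 1.53. TGF-β was thus lower by 2.07 and 0.57 in replicates 1 and 2 and higher by 1.16 in replicate 3 on the first, and lower by 2.03 and 0.37 and higher by 1.29 on the second. The mean changes of -0.49 (SE 0.459) and -0.37 (SE 0.471) did not pass (adjusted p = 0.641 and 0.755 in limma's paired fit). The means were 0.30 and 0.46 without replicate 1, and without replicate 3 they were -1.32 and -1.20 and both passed (adjusted p = 0.00695 and 0.0186 in limma). Each replicate difference rests on 1 pair of arrays. DKK1 differed between replicates (adjusted p = 0.0080 and 0.0087 in limma's F test), with replicate 3, in which the cell cycle probe sets were also high, at the top.

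VCAN, which encodes the matrix proteoglycan versican, listed among Wnt targets, had log2 fold changes of 0.79, 0.55 and 0.47 on its 3 probe sets and did not pass on any (adjusted p = 0.0732, 0.175 and 0.352 in limma's paired fit). Its replicate differences were 1.57, 1.27 and 1.38 in replicate 1, against at most 0.40 in replicates 2 and 3. Without replicate 1 the probe sets had 0.39, 0.19 and 0.02 and did not pass. Without replicate 3 they had 0.99, 0.79 and 0.59, and the first and second passed (adjusted p = 0.0166 and 0.0340 in limma).

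The 5 named genes outside the list whose probe sets most resembled the mean of the TCF7 probe sets over the 6 arrays were PRICKLE3, TMEM170A, TAF2, DHX16 and SLC22A5, with Pearson r from 0.984 to 0.990. The points share the replicates and the treatment, and r over 6 arrays is given as a description. The resemblance was in pattern and not in size, since their log2 fold changes were 0.17 to 0.55, and of the 5 SLC22A5 alone rose (0.55, adjusted p = 0.0240 in limma's paired fit).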
